A study of Mus musculus with 30 samples.

Results

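The RNA content of sperm from vehicle-injected male mice was described in 11 of the 30 samples of the series, 4 libraries made from polyadenylated RNA and 7 made from total RNA depleted of ribosomal RNA. They were chosen by label alone, as every vehicle sperm library in each of the sperm tables, and no measured value entered the choice. The series was made to ask how the drug tesaglitazar, an activator of the nuclear receptors PPARα and PPARγ, affects sperm RNA, and it also holds small RNA of serum. Here only the vehicle groups enter, apart from a repeat of the comparison in the tesaglitazar groups. All were C57Bl/6J males that received DMSO in sterile saline into the abdomen, with 2 injections a week over 4 weeks. Their age is given as 3 months, which in the methods of the study is the age at injection. Sperm had swum up from cauda epididymis tissue, and somatic cells had been lysed. The polyA group, libraries ai_2, ai_4, ai_6 and ai_8, was collected 24 h after the last injection and prepared with the TruSeq Stranded mRNA kit for a NovaSeq instrument. The total RNA group, libraries KG8-06 to KG8-10, KG8-13 and KG8-14, was collected 46 days after it and prepared with the TruSeq Stranded Total RNA kit and Ribo-Zero Gold for a HiSeq instrument. Library type, time, age at collection, kit, instrument and animals therefore change together and cannot be told apart in any difference given here. The labels do not say that each library is a separate male, so p-values measure the spread between libraries.

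Sperm is nearly silent in transcription, and most of the RNA it carries was made earlier, in spermatids, or was taken up from fluid and cells during passage through the epididymis. PolyA selection keeps RNAs that carry a tail of adenines, which most mRNAs and mitochondrial mRNAs do and most histone mRNAs, ribosomal RNAs and small structural RNAs do not. Total RNA libraries keep RNA with or without a tail, fragments included, once ribosomal RNA has been reduced by hybridisation to probes.

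Each value was an estimated count, the number of reads that the program Salmon assigned to a gene or to a family of repeats. Reads that match several near-identical copies are divided among them, so the counts of ribosomal pseudogenes, repeats and transcripts named after genomic clones are uncertain in how they split. The polyA libraries held 15337517 to 26261582 counts, with a median of 17444417. The total RNA libraries held 4538101 counts in KG8-10 to 10138930 in KG8-13, with a median of 8189891. The tables had been filtered separately before deposit: in the total RNA table each feature was above 20 counts in at least 3 of the 14 libraries of both treatments, while the polyA table held 240 features that were above 20 counts in none of its 8 libraries. A feature missing from a table is thus listed nowhere in it, which does not show that it was absent from those libraries.

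KG8-14 stood apart from the other total RNA libraries. Ribosomal RNA took 8.64% of its counts, against 44.0% to 64.3% in the other 6, and annotated mRNAs and long intergenic RNAs took 47.9%, against 3.05% to 18.2%. Its factor from the trimmed mean of M values (TMM), which scales libraries on the assumption that most features do not change between them, was 4.31, while KG8-06 had the lowest of the 11 at 0.402. In CPM scaled by these factors, KG8-13 had more of the gene Lars2 and the repeat ORR1A3 than the other total RNA libraries and less of several sperm mRNAs. By share of counts ORR1A3 was highest in KG8-14. Among the polyA libraries ai_4 had the lowest share of mitochondrial mRNAs, 0.759% against 2.71% to 6.04% in the others, and the highest share of ribosomal RNA. In bulk RNA, fewer cells of a type and less RNA per cell cannot be told apart. Results whose call rests on KG8-13 or KG8-14 are given with and without them.

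The polyA table listed 16242 features and that of total RNA 3082, of which 2957 were in both. Those shared features were 18.2% of the polyA table and 95.9% of the total RNA table, so that 13285 were listed for polyA RNA alone and 125 for total RNA alone. Sharing differed by class. Of 633 transposable element families in the polyA table, 561 (88.6%) were in the total RNA table too, against 2023 of 12712 annotated mRNAs and long intergenic RNAs (15.9%). All 13 mitochondrial mRNAs were in the polyA table and 5 of them in the total RNA table, and of 98 small structural RNAs 13 were in both. Of 9277 features above 20 counts in each of the 4 polyA vehicle libraries, 6702 were not in the total RNA table. Despite these unequal lengths, the shared features held 82.1% ± 3.11 (SD, n = 4) of polyA counts and 83.0% ± 4.51 (SD, n = 7) of total RNA counts.

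By class, the largest difference in the share of counts was in ribosomal RNA. Features entered this class by name or annotation alone, so ribosomal reads assigned to other names would fall outside it. It took 2.96% ± 2.68 (SD, n = 4) of polyA counts and 50.5% ± 20.4 (SD, n = 7) of total RNA counts (exact two-sided permutation test, p = 0.00970 after Benjamini-Hochberg adjustment over the 8 classes). KG8-14 at 8.64% still lay above the highest polyA library, ai_4 at 6.83%. In the polyA libraries most of the class was n-R5s100, a 5S ribosomal RNA listed in the polyA table alone, with 2.47% of counts in ai_2, 6.42% in ai_4, 0.910% in ai_6 and 1.28% in ai_8. In total RNA it was a single feature, Rn18s-rs5, a sequence related to 18S ribosomal RNA, with a lowest share of 8.64%, a median of 63.0% and a highest of 64.3%. In the polyA libraries Rn18s-rs5 took 0.0440%, 0.0554%, 0.0247% and 0.0233%, so the groups did not overlap.

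Mitochondrial RNAs took a larger share of polyA counts. For mitochondrial ribosomal RNAs the means were 5.15% ± 1.82 (SD, n = 4) and 0.906% ± 1.32 (SD, n = 7), with an adjusted exact permutation p of 0.00970. KG8-14, at 3.72%, overlapped with ai_2 at 3.70%, and the other total RNA libraries were all below the polyA libraries. For mitochondrial mRNAs the means were 3.35% ± 2.21 (SD, n = 4) and 0.0126% ± 0.0163 (SD, n = 7), with an adjusted exact permutation p of 0.00808. The polyA libraries held 2.71%, 0.759%, 6.04% and 3.87%, all above the highest total RNA library, KG8-14 at 0.0480%. Without KG8-14 the total RNA means were 0.438% for the mitochondrial ribosomal RNAs and 0.00666% for the mRNAs, with an adjusted exact permutation p of 0.00635 for each. Without KG8-13 and KG8-14 they were 0.509% and 0.00757%. KG8-06 had 177 such counts, a share of 0.00215% with a 95% Wilson interval from 0.00186% to 0.00249%. Such intervals cover counting error only, since reads without molecular identifiers are not independent molecules.

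Annotated mRNAs and long intergenic RNAs took 34.6% ± 4.5 (SD, n = 4) of polyA counts and 14.4% ± 15.8 (SD, n = 7) of total RNA counts, a difference of 20.1 points with an exact permutation p of 0.0485, or 0.0646 after adjustment. The overlap came from KG8-14 at 47.9%: without it the difference was 25.7 points with an adjusted exact permutation p of 0.00635, and without KG8-13 and KG8-14 it was 25.1 points with 0.0106. Names without annotation took 37.7% ± 3.85 (SD, n = 4) and 17.4% ± 4.62 (SD, n = 7), with an adjusted exact permutation p of 0.00808 and no overlap. Of the total RNA share, 15.6 points were Yam1, which is not in the polyA table, and over shared features alone the class took 44.7% and 1.98%, with an adjusted exact permutation p of 0.00606. Different transcripts made up that class in each library type, as given next.

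Transposable elements took 10.9% ± 1.28 (SD, n = 4) of polyA counts and 13.6% ± 4.41 (SD, n = 7) of total RNA counts, and the difference did not pass the threshold (adjusted exact permutation p = 0.384). Small structural RNAs took 2.21% ± 0.691 (SD, n = 4) and 3.24% ± 4.07 (SD, n = 7), with an adjusted exact permutation p of 0.833. This last difference changed direction without KG8-14, where small structural RNAs took 12.1%, and became 0.449 points in favour of polyA RNA.

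These shares depended on the few features that dominate each library. Once the ribosomal class and the 5 most abundant features of each library type were set aside, transposable elements made up 14.5% ± 3.75 (SD, n = 4) of the remaining polyA counts and 37.7% ± 7.61 (SD, n = 7) of the remaining total RNA counts, with an adjusted exact permutation p of 0.00404. On that basis annotated mRNAs and long intergenic RNAs took 58.5% and 54.8% (adjusted exact permutation p = 0.371). The remaining share of small structural RNAs was then 2.64% in polyA RNA and 0.438% in total RNA, the opposite order to that over all counts. Rn7s1 is 1 of the features set aside, and with 3.13% of all total RNA counts and 1.28% of all polyA counts on average it was most of the class in total RNA. Without KG8-14, where Rn7s1 took 11.8%, its total RNA mean was 1.68%. The elements L1Md_F2, L1Md_T and B4A were set aside too.

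**Figure D1:**
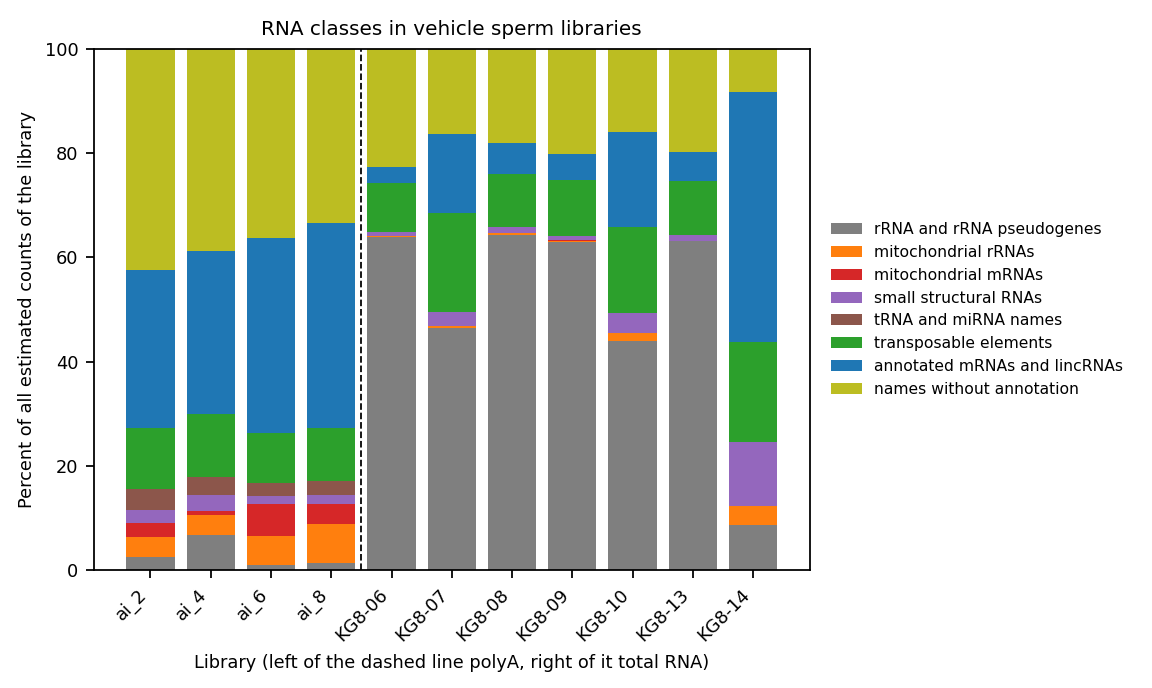
Percent of all counts of each library by RNA class, with 1 bar for each of the 4 polyA and 7 total RNA libraries. Ribosomal RNA runs from 44.0% to 64.3% in 6 total RNA libraries, is 8.64% in KG8-14 and is at most 6.83% in the polyA libraries.

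Dominant features differed between the library types. Of the 10 highest of each, 2 were common to both, the LINE-1 family L1Md_F2 and the mitochondrial ribosomal RNA mt-Rnr2. The clone-named transcript RP23-81C12.3 alone took 37.7% of counts in ai_2, 35.2% in ai_4, 30.8% in ai_6 and 28.05% in ai_8. In total RNA it took 0.0617% at the lowest, 0.0973% at the median and 0.380% at the highest, in KG8-13. Every polyA library was thus far above every total RNA library.

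Lars2, which encodes the mitochondrial leucyl-tRNA synthetase, took 11.6%, 14.1%, 10.0% and 10.3% of polyA counts in the same order of libraries. Its lowest share in total RNA was 0.00971%, its median 0.0206% and its highest 0.290%, in KG8-13. The microRNA gene Mir6236 took 3.91%, 3.55%, 2.49% and 2.78% of polyA counts and from 0.000462% to 0.0103% of total RNA counts, with a median of 0.00394%. Both features were higher in all 4 polyA libraries than in all 7 total RNA libraries. Reads of a gene of this kind in libraries of long RNA need not come from a mature microRNA. The mature sequence that RefSeq gives for mmu-miR-6236 is printed because the gene is the main member of the tRNA and microRNA class in the polyA libraries. It lies on the plus strand of build GRCm38.p6, chromosome 9, from 110281353 to 110281371, and has 19 bases with the seed in capitals.
mmu-miR-6236: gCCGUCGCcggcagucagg

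In total RNA, Yam1, a name without annotation that is listed in the total RNA table alone, took 2.77% of counts at the lowest, in KG8-14, 17.3% at the median and 22.3% at the highest. B4A, a family of short interspersed elements, took 1.31% at the lowest, again in KG8-14, 3.43% at the median and 4.11% at the highest. Its polyA shares were 0.0600%, 0.0889%, 0.0582% and 0.0756%, all below. L1Md_F2, the element family near the top in both, took 2.27%, 2.50%, 1.55% and 1.69% of polyA counts and from 1.44% to 3.46% of total RNA counts, with a median of 2.65%, and these ranges overlapped.

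Few features carried most counts in either type. In the polyA libraries 3, 3, 6 and 6 features reached 50% of counts, while 6 total RNA libraries needed 1 or 2 and KG8-14 needed 29. To reach 90% took 628 to 1694 features in polyA RNA, 3 to 263 in 6 total RNA libraries and 794 in KG8-14. The 10 most abundant features of a library held 65.7% ± 7.96 (SD, n = 4) in polyA RNA and 80.4% ± 19.3 (SD, n = 7) in total RNA, a difference of -14.8 points that did not pass the threshold (exact permutation p = 0.152). Without KG8-14 it was -21.3 points with an exact permutation p of 0.0143, and without KG8-13 and KG8-14 it was -20.4 points with 0.0238.

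The question across the shared features was which RNAs stood higher in each library type once the libraries were scaled. Levels are given as CPM, counts per 1000000 counts of a library over the shared features after TMM scaling, and fold changes are log2 of polyA over total RNA. Lengths were not available, so CPM are not corrected for length, fold changes compare a feature with itself, and the most abundant member of a list is the one with the highest CPM. Features above 20 counts in 4 or more of the 11 libraries were tested, 2956 in all. The quasi-likelihood F-test of edgeR, adjusted by the Benjamini-Hochberg method over all of them, called 2150 (72.7%) at the 0.05 threshold. Of these, 1204 (40.7% of those tested) were higher in polyA RNA and 946 (32.0%) in total RNA. For 1712 features (57.9%) the 2 groups of libraries did not overlap in CPM, with 991 above in polyA RNA and 721 above in total RNA. The median log2 fold change over all 2956 was 0.14. The filter ignores the groups, so a feature can pass it through the 4 polyA libraries alone. With more than 20 counts asked of all 4 polyA libraries and at least 6 total RNA libraries, 1971 were tested and 755 and 693 were higher in polyA and in total RNA. Hist2h2aa1, H2afb1, mt-Nd1, Rmrp, Pgam2, Rplp1, RLTR4_Mm and RLTR6_Mm, given below as higher in polyA RNA, were then not tested.

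These counts rest on the scaling. With library totals over the shared features and no TMM, the median of all features moved by -0.83 and 879 features were called, 334 higher in polyA RNA and 545 in total RNA. With totals of the whole table it moved by -0.91 and 769 were called, 279 and 490. With TMM computed over mRNAs alone it moved by -0.55 and the calls were 926 and 1327, and with DESeq2 size factors by -0.19 with 1114 and 1102. A positive log2 fold change smaller than the size of these shifts can therefore change sign with the scaling. Leaving out each library in turn gave 2057 to 2180 calls, and leaving out KG8-13 and KG8-14 gave 2084.

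The same comparison in males injected on the same schedule with 10 µg tesaglitazar per kg, with 4 polyA and 7 total RNA libraries that share no library with the vehicle groups, called 1697 of 2889 features (58.7%), 940 higher in polyA RNA and 757 in total RNA. Of 2888 features tested in both, 1586 (54.9%) were called in both with the same sign and 1 with opposite signs. The 1586 were 73.8% of the vehicle calls and 93.5% of the tesaglitazar calls. The same confounding of library type with time, kit and instrument holds in those males.

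Of 2023 annotated mRNAs and long intergenic RNAs tested, 1071 were higher in polyA RNA, 335 in total RNA and 617 were not called, beside 40.7% and 32.0% of all features, with a median log2 fold change of 0.76, which is smaller than the shift that library totals gave. Of 349 names without annotation, 91 were higher in polyA RNA and 147 in total RNA, or 26.1% and 42.1%, with a median of -0.44. In the ratio of summed counts within a library, which no scaling changes, shared transposable elements to shared mRNAs, long intergenic RNAs and clone-named transcripts gave a mean log2 of -2.46 ± 0.13 (SD, n = 4) in polyA RNA and 0.38 ± 0.93 (SD, n = 7) in total RNA. The difference of -2.84 had an exact permutation p of 0.00303, the smallest that 4 against 7 libraries can give. It rested largely on RP23-81C12.3 and Lars2 in the denominator: without these and Yam1 the means were -0.45 and 0.42, the difference -0.87 and the exact permutation p 0.127. Over all features of each table the means were -2.74 and -1.23, a difference of -1.51 with an exact permutation p of 0.00303.

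**Figure D2:**
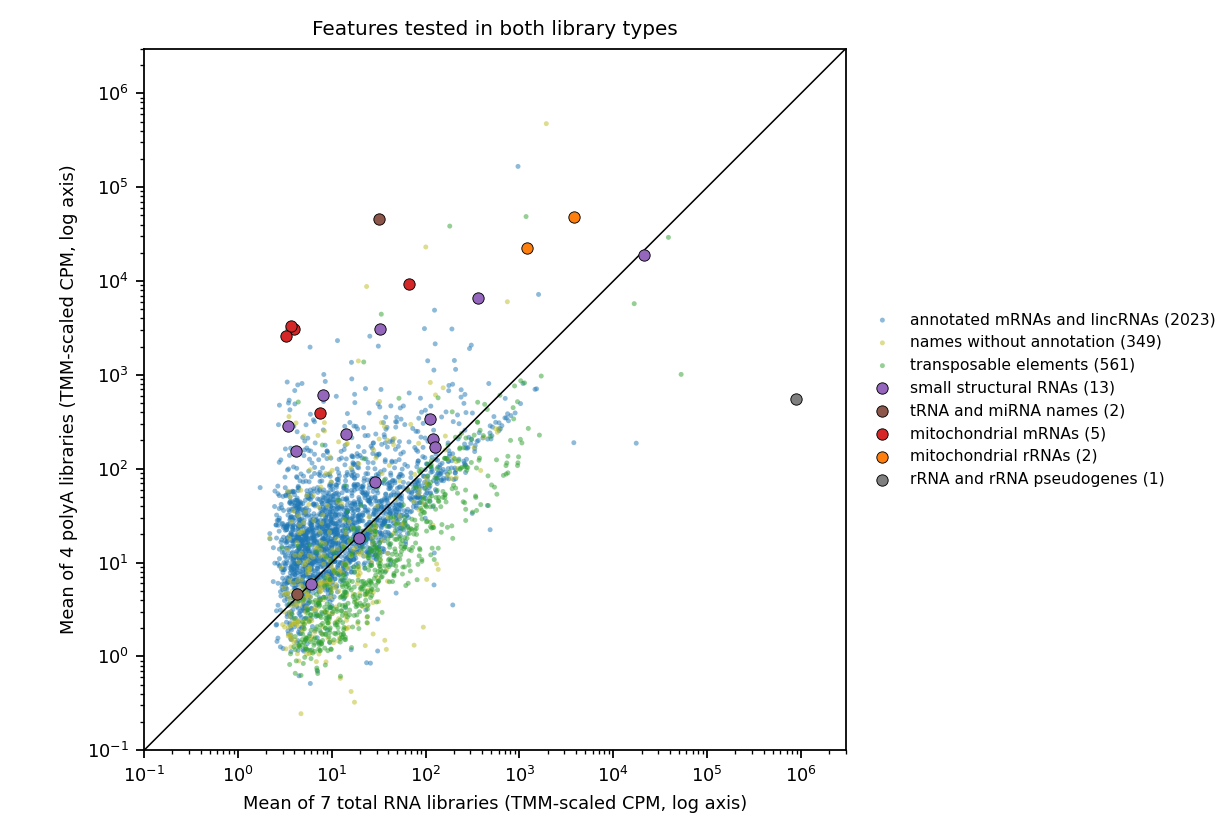
Mean TMM-scaled CPM of the 2956 tested features in the 4 polyA libraries against the 7 total RNA libraries, both on log axes, coloured by class, with a line of equality. All 5 mitochondrial mRNAs lie above the line, the ribosomal Rn18s-rs5 lies far below it, and of 561 transposable elements 463 were called higher in total RNA.

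**Figure D3:**
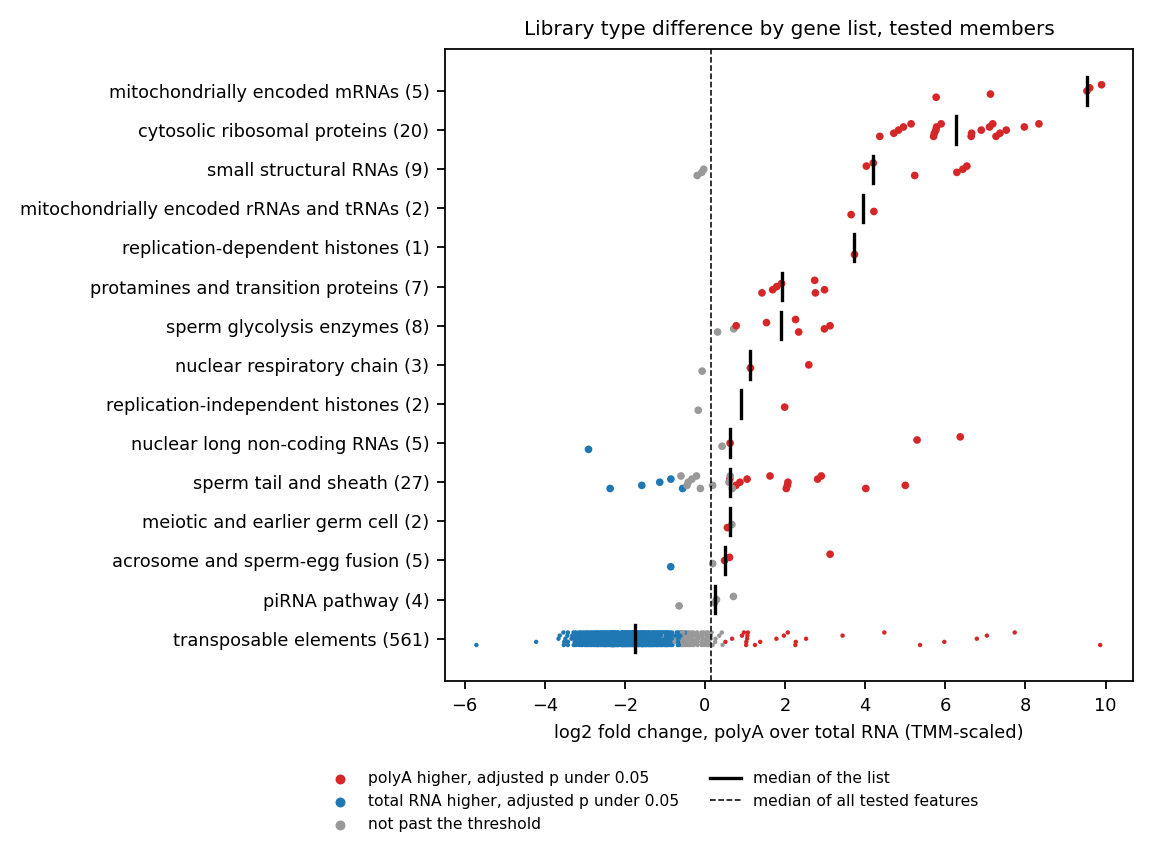
Log2 fold change of polyA over total RNA, TMM-scaled, for the tested members of each gene list, with a bar at the list's median and a dashed line at the median of all 2956 features. Mitochondrial mRNAs have a median of 9.54, ribosomal protein mRNAs 6.27 and transposable elements -1.74, against 0.14 for all features.

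Mitochondrially encoded mRNAs, which encode subunits of the respiratory chain and the ATP synthase, were far higher in polyA RNA. All 5 tested of the 13 were called higher in it, with a median log2 fold change of 9.54 and a range of 5.77 to 9.90, beside 0.14 for all features, and all 5 were called under each scaling tried. Among all features 40.7% were called higher in polyA RNA. With the count filter asked of both groups 2 of the 5 were tested and called, with a median of 6.45, since the others were above 20 counts in only 3 total RNA libraries. For mt-Co1, cytochrome c oxidase subunit 1, the polyA CPM were 9291 in ai_2, 3016 in ai_4, 18144 in ai_6 and 6957 in ai_8. Its total RNA CPM were 27.0 at the lowest, 60.6 at the median and 115 at the highest. The log2 fold change was 7.13 (SE 0.51, adjusted p = 2.97e-08 from edgeR). ai_6 was the highest and ai_4 the lowest polyA library, and every polyA library stood above every total RNA library.

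mt-Nd1, a subunit of complex I, had polyA CPM of 2941, 954, 6107 and 3408 and total RNA CPM of 1.26 at the lowest, 3.82 at the median and 6.64 at the highest. The log2 fold change came to 9.90 with an SE of 0.57, and ai_4 was again the lowest polyA library. It rests on 7 to 145 counts of mt-Nd1 in each total RNA library. With the count filter asked of both groups mt-Nd1 was not tested. mt-Co2, listed in the polyA table alone, had 14938, 4526, 24609 and 11139, with ai_6 the highest and ai_4 the lowest. Within a library, the log2 ratio of mitochondrial to nuclear mRNAs over shared features was -5.75 in polyA RNA and -10.46 in total RNA, a difference of 4.71 with an exact permutation p of 0.00303. Without RP23-81C12.3, Lars2 and Yam1 it was 6.68, and 7.29 over all features of each table.

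The mitochondrial ribosomal RNAs were also higher in polyA RNA. mt-Rnr2, the large one, had polyA CPM of 38518, 45599, 49988 and 57425 and total RNA CPM of 1081 at the lowest, 3211 at the median and 7137 at the highest. On the log2 scale the fold change was 3.65 (SE 0.45, adjusted p = 4.67e-06 from edgeR). For mt-Rnr1, the small one, the log2 fold change was 4.22. KG8-14 was the highest total RNA library and KG8-13 the lowest for both, and the groups did not overlap.

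Small structural RNAs mostly carry no polyA tail in the cell. Of the gene list used here, 54 were in the polyA table and 9 were tested, of which 6 were higher in polyA RNA and 3 were not called, with a median log2 fold change of 4.20. The class used for shares is a different and larger set, with 13 tested, 9 higher in polyA RNA, 4 not called and a median of 1.61. Over all features 40.7% were higher in polyA RNA. Rn7s1, the RNA of the signal recognition particle, had polyA CPM of 27101, 22814, 14384 and 10715 and total RNA CPM of 16547 at the lowest, 20448 at the median and 29927 at the highest. The groups overlapped, and the log2 fold change of -0.19 passed the threshold only with TMM over mRNAs (adjusted p = 0.0420 from edgeR), as higher in total RNA. Rn7sk, which holds a transcription elongation factor inactive, had polyA CPM of 5294, 14415, 3236 and 3569 and total RNA CPM of 202 at the lowest, 361 at the median and 465 at the highest. ai_4 was the highest for it, the groups did not overlap, and the log2 fold change was 4.20. Rmrp, the RNA of RNase MRP, and Rnu1a1, the U1 RNA of the spliceosome, had log2 fold changes of 6.44 and 6.54. Rmrp had 12 to 94 counts in each total RNA library and was not tested with the count filter asked of both groups. Rnu1a1 was highest in ai_4 too, with 6094 CPM against 1726 to 2669.7 in the other polyA libraries.

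The polyA table held 21 nuclear long non-coding RNAs and 5 were tested, 3 of them higher in polyA RNA and 1 in total RNA, beside 40.7% and 32.0% of all features. Higher in polyA RNA were 2 with either library total, TMM over mRNAs or without the 10 most abundant features, DESeq2, and without KG8-13 and KG8-14. Their median log2 fold change of 0.63 fell to -0.05 with totals of the whole table. Malat1, an abundant nuclear RNA of somatic cells, had polyA CPM of 3047, 8275, 4089 and 4147 and total RNA CPM of 95.4 at the lowest, 110.4 at the median and 160.1 at the highest. Its log2 fold change was 5.30 (SE 0.29, adjusted p = 2.40e-09 from edgeR). Neat1, the scaffold of paraspeckles, had 794, 2720.1, 852 and 1069 in polyA RNA and at most 23.9 in total RNA. For both, ai_4 was the highest library and no total RNA library reached a polyA one. Snhg14, a long host transcript of small nucleolar RNAs, ran the other way with polyA CPM of 4.56, 4.08, 1.59 and 2.30 and total RNA CPM of 13.6 at the lowest, 24.5 at the median and 31.3 at the highest. The log2 fold change came to -2.91.

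Protamines and transition proteins replace histones when spermatids condense their chromatin, and their mRNAs are stored for late translation. All 7 of these genes in the tables were tested and called higher in polyA RNA, with a median log2 fold change of 1.91 and a range of 1.42 to 2.98, beside 40.7% and a median of 0.14 for all features. Scaled by library totals instead, the median was 0.90 or 0.81, and 3 or 2 of the 7 were called. Prm2, protamine 2, had polyA CPM of 2426, 977, 2259 and 2634 and total RNA CPM of 124 at the lowest, 317 at the median and 429 at the highest. On the log2 scale the fold change was 2.76 (SE 0.32, adjusted p = 2.61e-06 from edgeR). ai_4 was below the other polyA libraries, and still above every total RNA library. With totals of the whole table Prm2 was not called (adjusted p = 0.0624 from edgeR).

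Prm1, protamine 1, had polyA CPM of 383, 143, 364 and 378 and total RNA CPM of 2.51 at the lowest, in KG8-13, 54.4 at the median and 88.2 at the highest. Tnp1, transition protein 1, had 182, 72.7, 135 and 145 in polyA RNA and 12.5 at the lowest, 18.7 at the median and 20.2 at the highest in total RNA. Tnp2, transition protein 2, had 406, 173, 312 and 325 against 67.7 at the lowest, 85.1 at the median and 132 at the highest. The log2 fold changes were 2.74, 2.98 and 1.69 in this order, ai_4 was the lowest polyA library for all of them, and none overlapped. Tnp2 was not called with library totals (adjusted p = 0.438 and 0.530 from edgeR).

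Replication-dependent histone mRNAs typically end in a stem-loop and not in a polyA tail. Of 12746 annotated mRNAs and long intergenic RNAs in the data, 12712 were in the polyA table and 2057 in the total RNA table. All 30 replication-dependent histones in the data were in the polyA table and 1 in the total RNA table. That 1, Hist2h2aa1, a histone H2A, had polyA CPM of 77.8, 71.9, 104 and 74.2 and total RNA CPM of 4.65 at the lowest, 5.80 at the median and 8.33 at the highest. Its log2 fold change was 3.71 (SE 0.19, adjusted p = 1.30e-09 from edgeR), without overlap. Among 12 replication-independent histones in the polyA table, H2afb1 and H2afy2 were tested. H2afb1, a variant of late spermatids, had a log2 fold change of 1.99 and was not called with library totals (adjusted p = 0.268 and 0.337 from edgeR). H2afy2, a macroH2A, had -0.17 and was called only with TMM over mRNAs (adjusted p = 0.0328 from edgeR), as higher in total RNA. H3f3b, a gene of histone H3.3, was in the polyA table alone, with 105, 98.8, 139 and 138.

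The polyA table held 44 genes of the sperm tail and its sheaths and 27 were tested, with 12 higher in polyA RNA, 5 in total RNA and 10 not called. Those are 44.4% and 18.5% of the 27, beside 40.7% and 32.0% of all features. The counts were 8 and 8 with TMM over mRNAs, 4 and 3 with totals over shared features, 2 and 2 with totals of the whole table, and 11 and 6 without KG8-13 and KG8-14. The median log2 fold change of 0.62 became -0.26 and -0.34 with library totals. Odf1, a protein of the outer dense fibres, had polyA CPM of 2757, 1315, 3842 and 4415 and total RNA CPM of 110.3 at the lowest, 178 at the median and 278 at the highest. The log2 fold change came to 4.02 (SE 0.31, adjusted p = 6.04e-08 from edgeR). Smcp, a protein of the mitochondrial sheath, had 2226, 1049, 3962 and 5206 in polyA RNA and 49.4 at the lowest, 109.7 at the median and 114 at the highest in total RNA, a log2 fold change of 5.00. ai_4 was the lowest polyA library for both and KG8-13 the lowest total RNA library, and neither overlapped. Hydin, a protein of the central pair of the axoneme, ran the other way with polyA CPM of 177, 171, 139.8 and 122 and total RNA CPM of 305 at the lowest, 324 at the median and 384 at the highest. On the log2 scale the fold change was -1.13, without overlap, and it was not called with totals of the whole table (adjusted p = 0.0553 from edgeR).

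Of the 14 enzymes and transporters of sperm glycolysis, which powers the tail, 8 were tested, 6 were higher in polyA RNA and 2 were not called, beside 40.7% of all features higher in polyA RNA. Their median log2 fold change was 1.90, and with library totals 2 or 1 of them were called. Pgam2, a phosphoglycerate mutase, had polyA CPM of 68.5, 23.6, 53.8 and 50.4 and total RNA CPM of 2.87 at the lowest, 6.32 at the median and 7.85 at the highest. Its log2 fold change of 3.12 came with no overlap, and ai_4 was the lowest polyA library. Hk1, hexokinase 1, had 721, 542, 853 and 1119 in polyA RNA and 266 at the lowest, 484 at the median and 624 at the highest in total RNA. The groups overlapped, since ai_4 lay below KG8-08 and KG8-14, and the log2 fold change of 0.78 was smaller than the shift of all features under library totals. Hk1 was not called with TMM over mRNAs (adjusted p = 0.344 from edgeR) or library totals (0.958 and 0.890). Gpi1, glucose-6-phosphate isomerase, had a log2 fold change of 0.32 and was called only without ai_4 or with limma voom (adjusted p = 0.0341 from edgeR and 0.0449 from limma voom).

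The polyA table held 27 acrosome and gamete fusion genes and 5 were tested, with 3 higher in polyA RNA and 1 in total RNA, beside 40.7% and 32.0% of all features. Only 1 was called higher in polyA RNA with DESeq2, TMM over mRNAs or library totals, and 2 without KG8-13 and KG8-14. Their median log2 fold change of 0.49 became -0.07 with TMM over mRNAs and -0.36 and -0.44 with library totals. Crisp2, a cysteine-rich protein of the acrosome and tail, had polyA CPM of 132, 82.8, 359 and 668 and total RNA CPM of 15.2 at the lowest, in KG8-13, 35.8 at the median and 49.2 at the highest, a log2 fold change of 3.12. Pcsk4, a proprotein convertase of the acrosome, had 33.5, 32.9, 16.9 and 26.7 in polyA RNA and 39.9 at the lowest, 50.9 at the median and 64.0 at the highest in total RNA, a log2 fold change of -0.85. Pcsk4 was not called with library totals (adjusted p = 0.0988 and 0.109 from edgeR). Neither gene overlapped between groups.

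Cytosolic ribosomal proteins showed the largest median among lists of nuclear genes. All 86 were in the polyA table and 20 of them in the total RNA table. Those 20 were all called higher in polyA RNA, with a median log2 fold change of 6.27 and a range of 4.36 to 8.34, beside 40.7% and a median of 0.14 for all features, and all 20 were called under each scaling tried. With the count filter asked of both groups 10 were tested, all called, and their median was 5.43. Rplp1, a protein of the ribosomal stalk, had polyA CPM of 1999, 1258, 2976 and 1671 and total RNA CPM of 3.59 at the lowest, 5.98 at the median and 9.45 at the highest. Its log2 fold change was 8.34 (SE 0.34, adjusted p = 4.95e-10 from edgeR). Rpl41, a protein of the large subunit, had 2652, 1747, 3681 and 2250.1 against 14.5 at the lowest, 24.7 at the median and 36.1 at the highest. ai_4 was the lowest polyA library for both, ai_6 the highest, and the groups did not overlap. Eef1a1, which delivers aminoacyl-tRNAs to the ribosome, had a log2 fold change of 6.01, with 1162, 1755, 3026 and 2154 in polyA RNA and 5.37 at the lowest, in KG8-13, 29.6 at the median and 47.8 at the highest in total RNA.

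Other lists had few tested members, to be read beside the 40.7% of all features higher in polyA RNA and the 32.0% higher in total RNA. Of 83 nuclear genes of the respiratory chain, all in the polyA table, 3 were tested and 2 were higher in polyA RNA, among them Ndufa13 of complex I with a log2 fold change of 2.59. Scaled by library totals, the median log2 fold change of these 3 was 0.37 or 0.30 in place of 1.14, and edgeR called 0 of them. Of 18 genes in the polyA table that belong to the piRNA pathway, which silences transposable elements in germ cells, 4 were tested and edgeR's quasi-likelihood test called 0. Their groups overlapped, and their median log2 fold change of 0.26 became -0.26 with TMM over mRNAs and -0.41 and -0.52 with library totals. The 4 were Ddx4, Gtsf1, Tdrd6 and Tdrd9, with log2 fold changes of -0.65, 0.29, 0.71 and 0.24. At an unadjusted p under 0.05 there was 1, Tdrd6, which passed the adjusted threshold in edgeR's exact test (adjusted p = 0.0452) and without KG8-10 (adjusted p = 0.00760 from edgeR), but not in DESeq2 or limma voom. Of 10 genes of meiotic and earlier germ cells in the polyA table, Uchl1 and Msh4 were tested, with a median of 0.62 that became -0.17 and -0.25 with library totals. Uchl1, a ubiquitin hydrolase of spermatogonia, had 88.5, 49.7, 65.1 and 42.6 in polyA RNA and 39.0 at the lowest, 41.5 at the median and 45.3 at the highest in total RNA. It passed the threshold (adjusted p = 0.0132 from edgeR) although ai_8 lay within the total RNA range, and not without ai_2 (0.0694), without KG8-14 (0.0816), without KG8-13 and KG8-14 (0.108) or with the DESeq2 Wald test (0.0767). It was also not called in edgeR with DESeq2 size factors (0.0655), TMM over mRNAs (0.966) or either library total (0.799 and 0.760). Msh4, a protein of meiotic recombination, was called only without ai_4 or with limma voom (adjusted p = 0.00955 from edgeR and 0.0214 from limma voom).

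Among the annotated genes higher in total RNA, Gm26870 had polyA CPM of 238, 65.5, 262 and 183 and total RNA CPM of 9446 at the lowest, 19869 at the median and 26053 at the highest. The log2 fold change came to -6.55 (SE 0.56, adjusted p = 1.53e-07 from edgeR). Gm10800 had -4.32. Psd, a guanine nucleotide exchange factor, had 15, 7.96, 6.19 and 8.67 in polyA RNA and 34.7 at the lowest, 39.2 at the median and 52.5 at the highest in total RNA, a log2 fold change of -2.15. In all of these each total RNA library was above each polyA library, and for Gm26870 ai_4 was the lowest of all 11.

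Transposable elements are listed by family, each summed over its copies in the genome. Of 561 tested, 463 were higher in total RNA, 25 in polyA RNA and 73 were not called, with a median log2 fold change of -1.74. Over all features 32.0% were higher in total RNA and 40.7% in polyA RNA, with a median of 0.14, which also applies to the family groups below. Without KG8-13 and KG8-14, 485 of 557 element families were higher in total RNA and 21 in polyA RNA. For 400 families every total RNA library was above every polyA library, and for 20 the reverse held, beside 721 and 991 of all 2956 features. With library totals 351 and 323 were higher in total RNA and 9 and 8 in polyA RNA. Names of internal coding parts, which end in -int, had a median of -1.71 over 81 families and the other names -1.74 over 480.

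LINE families other than the young mouse L1Md group were the most uniform, with 110 of 113 higher in total RNA, 3 not called and a median log2 fold change of -2.29. Lx2A, an older LINE-1 family, had polyA CPM of 7.54, 5.00, 8.17 and 5.55 and total RNA CPM of 58.0 at the lowest, 78.2 at the median and 106 at the highest. On the log2 scale the fold change was -3.62 (SE 0.24, adjusted p = 1.13e-08 from edgeR), and the groups were far apart. Endogenous retroviruses of the ERVK group other than IAP were higher in total RNA in 159 of 188 families with a median of -1.85, ERVL and MaLR elements in 86 of 94 with -1.50, and ERV1 elements in 42 of 55 with -1.55. Higher in polyA RNA were 7, 4 and 7 families of these groups in the same order. Of IAP elements 12 of 21 were higher in total RNA and 3 in polyA RNA, with a median of -0.99. B2 elements were split, with 2 of 5 higher in polyA RNA, 2 in total RNA and 1 not called. Of the short B1 elements 13 of 15 were not called and 2 were higher in total RNA, with a median of -0.08. B4A, with polyA CPM of 925, 1484, 779 and 859.9 and total RNA CPM of 3328 at the lowest, 57374 at the median and 129090.0 at the highest, had the most negative log2 fold change of any element, -5.70.

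The elements that were higher in polyA RNA included gammaretroviral names. RLTR4_Mm, a long terminal repeat of this kind, had polyA CPM of 2673, 2145, 4450.3 and 2902 and total RNA CPM of 2.15 at the lowest, 3.57 at the median and 4.02 at the highest. Its log2 fold change was 9.87 (SE 0.30, adjusted p = 2.24e-11 from edgeR), and it rests on 10 to 82 counts in each total RNA library, above 20 in 3 of them. RLTR4_MM-int, RLTR6_Mm and MuLV-int had 7.04, 6.79 and 5.98. Every polyA library exceeded every total RNA library for these names, and ai_4 was the highest for both internal parts and the lowest for both terminal repeats. ORR1A3, a MaLR repeat, had 7.73. L1Md_T, a young LINE-1 family, had 5.37, with polyA CPM of 65068, 62782, 34852 and 31738 and total RNA CPM of 761 at the lowest, 991 at the median and 1617 at the highest. L1Md_F2 had -0.41 and overlapped, and relative to the median of all features it changed sign with library totals, to 0.32 and 0.40.

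As a share of all element counts, which no scaling of libraries changes, L1Md families made up 52.3% ± 6.12 (SD, n = 4) in polyA RNA and 30.6% ± 9.32 (SD, n = 7) in total RNA. ERVL and MaLR elements made up 27.4% ± 1.62 and 6.65% ± 3.26, B4 and ID elements 2.22% and 29.5% ± 10.9, and the other LINE families 2.98% and 18.3% ± 9.04, with the same n. Single families carried much of this. L1Md_T alone made up 30.5% in polyA RNA and 1.09% in total RNA (0.715% without KG8-14), and the other L1Md families 21.8% and 29.5%. ORR1A3 alone made up 24.8% and 0.133%, and the other ERVL and MaLR elements 2.65% and 6.52%. B4A made up 0.651% and 26.9%, and the other B4 and ID elements 1.56% and 2.52%. By family, 3 of 6 L1Md families were higher in total RNA and 1 in polyA RNA, with a median log2 fold change of -1.85, while 6 of 8 B4 and ID families were not called. These shares were not tested.

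Some further properties went with the library type. Genes in both tables spanned a median of 38.4 kb of the genome, introns included, for the 1958 of 2023 with a span in the RefSeq annotation, against 21.4 kb for 10323 of 10689 genes in the polyA table alone. When the 1958 were ordered by span and divided into 4 groups of 489 or 490, the median log2 fold change was 1.25 in the shortest, then 0.85, 0.64 and 0.35 in the longest. In the shortest group 327 of 490 were higher in polyA RNA and 55 in total RNA, and in the longest 192 and 91 of 490. Over all features 40.7% were higher in polyA RNA and 32.0% in total RNA. The part of the longest group that was higher in polyA RNA was close to that of all features, which also hold 561 transposable elements. In the class of these genes, 1071 of 2023 were higher in polyA RNA and 335 in total RNA, with a median log2 fold change of 0.76. The median of the longest group, 0.35, lay below that of the class. The Spearman correlation of span with log2 fold change across the 1958 genes was -0.225, where genes share libraries and are not independent. Spans were examined after the fold changes were known, and the part of span in the differences was not tested.

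Mean log2 CPM in polyA and in total RNA ranked the features alike to different degrees. Spearman's rho was 0.478 over the 2956 features, 0.856 over 561 transposable elements, 0.519 over 2023 annotated mRNAs and long intergenic RNAs, and 0.463 over 349 names without annotation. These values describe features that share libraries and genomic sequence and carry no test. Within a library type, the median SD of log2 CPM was 0.438 in polyA RNA and 0.356 in total RNA, and the SD was larger in total RNA for 1091 of 2956 features. It fell to 0.343 in polyA RNA without ai_4, to 0.320 in total RNA without KG8-14, and to 0.307 without KG8-13 and KG8-14.

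Markers of cells bear on what the polyA libraries hold besides sperm. Of 12712 annotated mRNAs and long intergenic RNAs in the polyA table, 2023 (15.9%) were in the total RNA table too. A marker not listed in the total RNA table was therefore not shown to be absent from those libraries. This applies to each marker list below. All 18 late spermatid and sperm markers were in the polyA table and 14 in the total RNA table. Their summed CPM were 11257 in ai_2, 5309 in ai_4, 14017 in ai_6 and 16749 in ai_8, with Smcp the most abundant at a mean of 3111. In total RNA they summed to 697 at the lowest, 1415 at the median and 1800 at the highest, with Prm2 the most abundant at a mean of 307. ai_4 was the lowest polyA library.

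Of 21 leukocyte markers 20 were in the polyA table, Cd3e being the exception, and none in the total RNA table. The leukocyte markers summed to 2253, 1759, 3077 and 2136 CPM, with Cd52 the most abundant at a mean of 1905. Cd52 alone had 1686, 1384, 2748 and 1801 and was highest in ai_6. The full sum thus largely follows Cd52 and not the other members of the list. Without Cd52 the other leukocyte markers summed to 567, 374, 329.6 and 335. Of 40 markers of the epididymal epithelium 25 were in the polyA table and none in the total RNA table, and they summed to 3132, 3537, 5824 and 6113, with Crisp1 the most abundant at 1069. Akr1b7, an aldo-keto reductase in the polyA table alone, had 2748, 4783, 5323 and 4757. With Cd52 the leukocyte sum was lowest in ai_4, without it in ai_6, and the epididymal sum was lowest in ai_2.

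Of 6 blood markers 4 were in the polyA table, with summed CPM of 90.1, 72.0, 219 and 353 and Hba-a2 the most abundant at a mean of 72.3. Of 12 markers of smooth muscle and stroma 10 were there, with sums of 74.0, 254, 74.7 and 94.3 and Col1a1 the most abundant at 28.8. Of 12 Sertoli and Leydig cell markers Sox9 and Amhr2 were there, with sums of 2.62, 6.31, 3.58 and 2.64. None of these markers was in the total RNA table, which does not show that they were absent from those libraries. No marker in the polyA table was at 0 in all 4 libraries. In ai_4 most of the stroma sum was Col1a1, Col3a1 and Col1a2, with 74.5, 60.3 and 59.2 CPM. Acta2, Myh11 and Dcn were highest in ai_4 too, but Tagln, Des and Cnn1 were highest in ai_8 and Pecam1 in ai_2. The stroma sum was highest in ai_4, the library with the lowest Prm2, Odf1, Smcp and mitochondrial mRNAs and the highest Malat1, Neat1 and Rn7sk. The part of other cells in these differences was not tested.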

How the data were processed

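The authors trimmed reads with Trim Galore 1.16 and quantified them with Salmon 0.11.2 against GENCODE transcripts, repeats and piRNA precursors, and the deposited values are estimated counts per gene or repeat family, not normalized. The deposited sperm tables were used for 11 vehicle libraries of 4538101 to 26261582 counts, and 0 columns were left unmapped. The serum small RNA table was not used. Features were classed by RefSeq annotation and repeat names: 12712 of 15463 mRNA and lincRNA names in the polyA table and 2057 of 2475 in the total RNA table matched, and 2491 and 378 of the others were clone names.

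Counts of shared features were rounded, those above 20 in at least 4 of 11 libraries kept (2956), scaled by TMM and tested with edgeR 4.0.16 (quasi-likelihood test, Benjamini-Hochberg, 0.05). Log2 CPM had 0.5 added to CPM. Shares, ratios and concentration had exact two-sided permutation tests, with a smallest p of 0.00303. Share intervals are 95% Wilson intervals. Alternatives were library totals without TMM, TMM over mRNAs or without the 10 most abundant features, DESeq2 1.42.0, edgeR's exact test, limma 3.58.1 voom, other count filters and leaving libraries out. Computing used R 4.3.3, Python 3.11.15, numpy 2.4.6, pandas 2.3.3 and matplotlib 3.10.9, and was tested on simulated data.

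Members and lists were chosen with earlier results of these data known. Named features were the 10 most abundant of each library type and the 10 with the highest share among those of a single table. From each list came the 2 most abundant and the 2 with the smallest p. List members missing from a table among the 3 most abundant of the other were added. The 10 mRNAs with the largest fold change each way were taken from those called without overlap and with a median of at least 100 counts. Elements were the 5 with the largest fold change each way among those called, with no condition on overlap or counts. Prm1, Snhg14, Hydin, Sox9, Amhr2, Hba-a2 and Col1a1 are outside that rule and were chosen after their values were seen, as were L1Md_F2 relative to all features and the sums without a single feature.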

Additional observations from a re-analysis of the deposited data

Results flagged for a closer look

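Among 240 groups of values, 17 had a lowest or highest library whose gap to the nearest other was large against the range of the group. Chance gives about 1 in 20 groups, and the groups are not independent. KG8-14 gave 6 of the 17, KG8-13 gave 5, ai_4 gave 4, and ai_2 and KG8-10 gave 1 each.

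In KG8-14, ribosomal RNA took 8.64% of counts (nearest other total RNA library 44.0%), mitochondrial ribosomal RNAs 3.72% (1.43%), mitochondrial mRNAs 0.0480% (0.0145%), small structural RNAs 12.1% (3.85%), and annotated mRNAs and long intergenic RNAs 47.9% (18.2%). Its 10 most abundant features held 41.0% (73.2%).

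In KG8-13, log2 CPM was higher than in the other total RNA libraries for Lars2, at 12.37, and ORR1A3, at 8.91. It was lower for Smcp, at 5.64, Crisp2, at 3.97, and Eef1a1, at 2.55. KG8-10 was the lowest total RNA library for Msh4, at 1.23.

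In ai_4, log2 CPM was lower than in the other polyA libraries for Prm2, at 9.93, and for Gm10718, at -1, which stands for 0 counts, and higher for MuLV-int, at 11.08. Its summed CPM of smooth muscle and stroma markers was 254, against 94.3 in the nearest polyA library. Col1a1, Col1a2 and Col3a1 carried most of that gap, while Tagln, Des and Cnn1 were highest in ai_8. In ai_2, Akr1b7 was lowest, at 11.42.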

How the results depend on the processing

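Shares of counts were recomputed outside the ribosomal class and the 5 most abundant features of each type. The polyA minus total difference became 2.20 points for small structural RNAs, a reversal, and -23.2 for transposable elements, now past the threshold. Rn7s1, nearly the whole small structural class in total RNA, is among the features left out there. With the same features left out and only shared ones kept, chosen after seeing the data, the difference was 3.10 for small structural RNAs, -0.000944 for tRNA and microRNA names and -7.54 for annotated mRNAs, all reversed, and -16.3 for elements. Over shared features with nothing left out the 3 reversed ones kept their direction, at -1.19, 3.85 and 12.5 points. Leaving out each library in turn gave -1.44 to 0.449 points for small structural RNAs, 18.2 to 25.7 for annotated mRNAs and -21.3 to -12.2 for the 10 most abundant features, where the last 2 passed the threshold without KG8-14. Without KG8-13 and KG8-14 these were 0.311, 25.1 and -20.4. The ratio of elements to mRNAs fell to -0.87 on the log2 scale, short of the threshold, without RP23-81C12.3, Lars2 and Yam1, also chosen after seeing the data.

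Calls fell to 879 (334 higher in polyA RNA, 545 in total RNA) with totals over shared features and to 769 (279 and 490) with totals of the whole tables. The stricter filter, with fewer features tested, called 755 as higher in polyA RNA. Relative to the median of all features, L1Md_F2 reversed to 0.32 and 0.40 with these totals. Leaving out libraries in turn gave -0.22 to 0.37 for the median of the piRNA pathway, -0.17 to 0.43 for Gtsf1 and -0.27 to 0.48 for Tdrd9, with reversals without ai_6 and KG8-07 for all of these, and without ai_8 for the pathway and Tdrd9. The cause of these changes was not tested. Of 73 single features, 65 kept their direction and side of the threshold with totals over shared features, 62 with totals of the whole tables, 67 with TMM over mRNAs and 70 to 73 when any single library was left out. Medians of lists relative to all features ranged over all alternatives from 5.46 to 6.37 for ribosomal proteins, 6.48 to 9.71 for mitochondrial mRNAs, 1.57 to 2.77 for protamines and transition proteins and -2.01 to -1.48 for transposable elements.

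No paired analysis was possible because the groups share no replicate number and the libraries of each type were numbered in separate series. The tables had been filtered separately, so features below their filters, and mature small RNAs, could not be compared. Library type, time, kit and instrument cannot be told apart.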
